A study of Solanum lycopersicum with 12 samples.

Results

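The genotype by stage interaction asks whether a gene changed by a different amount between breaker and 7 days later in slnor fruit than in wild-type fruit. For each gene it is the log2 change over those 7 days in slnor minus the log2 change in wild type, so a positive value means that the slnor change lay above the wild-type change. All 12 libraries entered 1 fit. Of 34075 genes in the count table, 20070 had enough counts to test, and 8474 of these (42.2%) had a called interaction, meaning a Benjamini-Hochberg adjusted p under 0.05 in edgeR's quasi-likelihood test. The interaction was positive, termed higher below, for 4382 genes (21.8%) and negative, termed lower, for 4092 (20.4%). A higher interaction does not mean that the level in slnor was above that in wild type.

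RNA was sequenced from tomato fruit (Solanum lycopersicum, cultivar Ailsa Craig, AC). The tested genotype, slnor, is a CRISPR mutant of NAC-NOR in the AC background, and the control is unmutated AC, written WT. Fruit were taken at breaker (B), when the first colour change shows, and 7 days after breaker (B7), which gives slnor at B7, slnor at B, WT at B7 and WT at B with 3 libraries each. All plants grew in the same greenhouse regime. The labels give no more of the mutation than this and describe no other slnor line, so slnor stands here for 1 mutant genotype. The tissue is named only as fruit. Nothing says that the 3 replicates are from different plants, so a p-value here measures only how far these samples spread, and that spread may be technical. Library totals ran from 50714230 to 69124795 counts.

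NOR encodes a transcription factor of the NAC family. In tomato it acts with the MADS-box factor RIN and with ethylene to start ripening, during which chlorophyll is lost, lycopene accumulates and the cell wall is taken apart. Fruit of nor mutants ripen slowly and incompletely. Whether a ripening gene is only slowed, does not move, or moves the other way in such fruit is what an interaction between genotype and stage describes.

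The fruit label was checked against the ripening genes E8, E4, PG2a and ACS2. All 4 were abundant in all libraries, with lowest values of 8208 CPM for E8, 1571 CPM for E4, 226 CPM for PG2a and 207 CPM for ACS2. CPM are counts scaled to the size of the library, here with TMM (trimmed mean of M-values) factors. The NOR transcript was also present throughout, at 553, 577 and 515 CPM in slnor at B7 and at 776, 792 and 896 CPM in slnor at B. In WT it stood at 459, 480 and 467 CPM at B7 and at 978, 970 and 955 CPM at B. NOR fell over the 7 days in both genotypes, and the slnor fall was smaller by 0.46 on the log2 scale (SE 0.07, adjusted p = 3.38e-05). Because an edited gene can still be transcribed, the NOR level is no check of which libraries are mutant.

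Most called interactions were changes of WT that were smaller or not detected in slnor. A gene was counted as blunted where both changes were called in the same direction and the slnor change was the smaller. Abolished means that the WT change was called and the slnor change was not, reversed that the changes were called in opposite directions, and enlarged that the slnor change was the larger in the same direction. Stage changes as such were called for 52.2% of genes in slnor (26.2% rises and 26% falls) and for 65.3% in WT (33.2% rises and 32.1% falls). Blunted or abolished changes made up 5656 genes, 66.7% of those called. Reversed changes made up 1057 genes (12.5%) and enlarged changes 644 (7.6%). Another 998 genes (11.8%) changed in slnor without a called change in WT, 118 had a called interaction with neither change called, and 1 fell in no class.

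By direction in WT, slnor blunted 1320 rises and 1585 falls and abolished 1427 rises and 1324 falls. It reversed 482 rises and 575 falls and enlarged 372 rises and 272 falls. A change that misses the threshold is not shown to be absent. Among the abolished changes the 95% interval of the slnor change lay within 0.5 of 0 on the log2 scale for 1178 rises and 917 falls. The blunted falls were the larger effects, with a median WT change of -1.48 against a median slnor change of -0.58, while in the blunted rises the median slnor change was 0.34 and the median WT change 0.75. Interactions of at least 2-fold were called for 2361 genes (11.8%), of which 1506 (7.5%) were higher and 855 (4.26%) lower interactions.

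**Figure D1:**
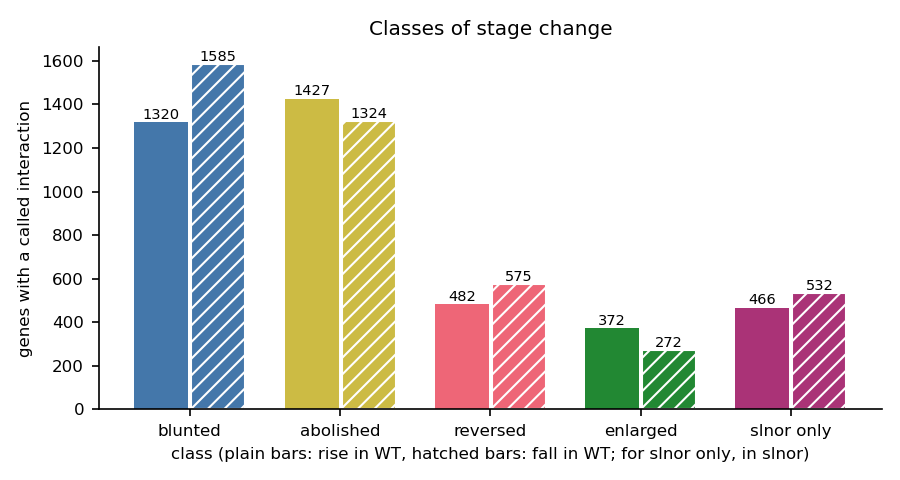
Number of genes with a called interaction in each class, with the class on the horizontal axis. Plain bars are WT rises and hatched bars WT falls, except for the class that changed in slnor alone, where they are slnor rises and falls. Blunted falls (1585) and abolished rises (1427) are the tallest bars, and enlarged falls (272) the shortest.

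The slnor change was set beside the WT change for the genes with the larger WT changes. In slnor, the median change was 45.1% of the WT change for the 1406 genes (7.01% of those tested) that rose at least 2-fold in WT (quartiles 8.06% and 76.8%). For the 2922 genes (14.6%) that fell at least 2-fold in WT it was 43.1% (quartiles 17.4% and 69.8%). The share among the rises was 53.8% for changes of 2- to 4-fold, 42% for 4- to 16-fold and 13.8% for the 241 genes over 16-fold. Of those 241, the slnor change was not called in 126, and 146 (60.6%) had a called interaction, so 13.8% is a loose figure. Among the falls the share was 45.7%, 42.2% and 36.1% in the same bins. Of the 1406 rises, 829 were also called rises in slnor, 135 were called falls and 442 were not called.

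Choosing genes by the size of their WT change favours WT in such a ratio, so the same measure was taken the other way. For the 833 genes (4.15%) that rose at least 2-fold in slnor, the median WT change was 82% of the slnor change (quartiles 31.5% and 120%). For the 1743 genes (8.68%) that fell at least 2-fold in slnor, it was 101% (quartiles 41.1% and 154%). Genes that moved at least 2-fold in slnor had thus moved by 82% to 101% as much in WT at the median, whereas genes that moved at least 2-fold in WT had moved by 43.1% to 45.1% as much in slnor. Among the genes with a stage change called in both genotypes, 7432 of 8489 changed in the same direction.

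**Figure D2:**
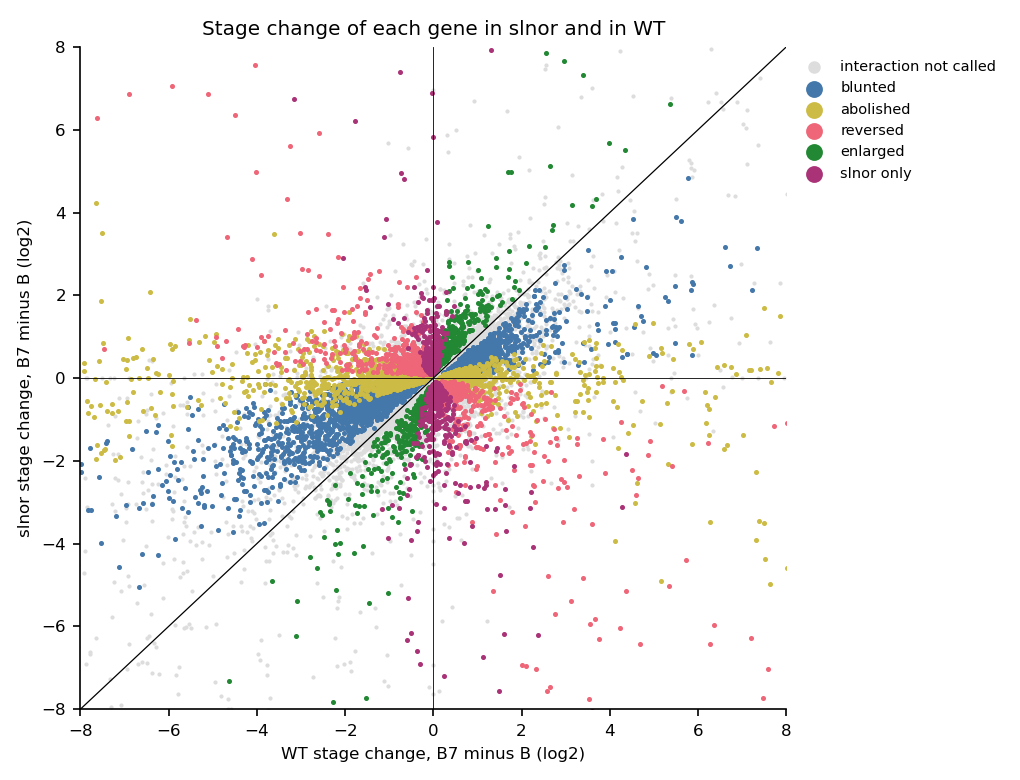
Change from B to B7 on the log2 scale, slnor on the vertical axis and WT on the horizontal axis, 1 point per gene, coloured by class. The diagonal marks equal changes. Blunted genes lie between the diagonal and the horizontal axis, and abolished genes lie around the horizontal axis. 142 genes with a change past 8 on either axis lie outside the plot, and the 118 genes with a called interaction but neither change called are not drawn. Grey points are genes without a called interaction.

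Seen as a gap between genotypes, the interaction was more often a gap that was larger or new at B7 (3977 genes, 46.9%) than one that was smaller or gone (2726 genes, 32.2%). With library totals alone the counts were nearly equal, 3643 larger or new and 3556 smaller or gone. The genotypes differed by the same test in 55.8% of all genes at B7 and in 49.3% at B. In 1334 genes slnor was below WT at B7 with no called difference at B, and in 1327 genes it was above WT at B7 with none at B. The gap present at B was larger at B7 in 519 genes with slnor below WT and in 797 with slnor above. It was no longer called at B7 in 778 genes that had been below WT and 946 that had been above, and it was smaller in 535 and 467. In 1570 genes (18.5% of those called) the gap changed sign, and 853 of these had slnor below WT at B and above WT at B7.

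The members of 15 gene lists were followed in detail. Of 152 list members tested, 110 had a called interaction (72.4%), beside 42.2% of all genes tested. Calls depend on level: 51.6% of all genes with a mean of 10 to 100 CPM and 65.3% of those over 100 CPM were called, and many list members are in that range. The called counts of single lists below are to be read beside these shares. Of the 110, 89 had a higher interaction and 21 a lower one, beside 51.7% higher among all calls. There were 44 blunted falls (40%), 18 reversed falls (16.4%), 12 abolished falls (10.9%) and 9 enlarged rises (8.18%). These classes made up 18.7%, 6.79%, 15.6% and 4.39% of all calls. Rises of WT that were blunted (6), abolished (2) or reversed (4) in slnor were few among the 110. Over all calls these were 15.6%, 16.8% and 5.69%. The members were chosen with earlier results of these data known, and the part of that choice in these splits was not tested. The median interaction over all genes tested was -0.00297.

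**Figure D3:**
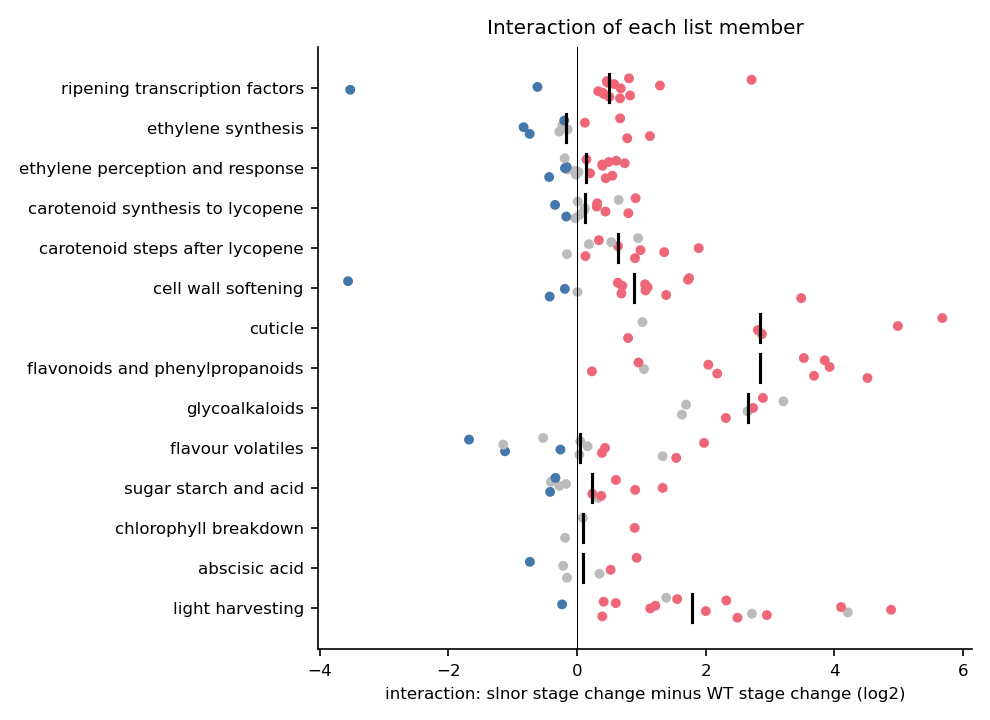
Interaction of each list member on the log2 scale, by list, without the seed list of 1 gene. Red points have a called positive interaction, blue points a called negative one and grey points no called interaction. The vertical bar is the median of the list. The medians of the flavonoid (2.85), cuticle (2.84) and glycoalkaloid (2.65) lists lie farthest to the right. The glycoalkaloid median falls on a gene without a called interaction.

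All 15 ripening transcription factor genes had a called interaction, 13 higher and 2 lower, with a median of 0.5. NAC1 (Solyc04g009440.3), a NAC family gene, changed in opposite directions. It stood at 11.3, 11.7 and 11.9 CPM in slnor at B7 and at 43.9, 36.6 and 38.5 CPM in slnor at B. In WT it stood at 18.9, 23.8 and 22.4 CPM at B7 and at 6.08, 6.69 and 6.51 CPM at B. The slnor libraries were therefore above WT at B and below WT at B7, with no overlap between any of the 4 groups. NAC1 fell 3.41-fold in slnor and rose 3.38-fold in WT, an interaction of -3.53 (SE 0.13, adjusted p = 1.06e-12). NAM1, another NAC gene, also fell in slnor and rose in WT, by much less, with an interaction of -0.62 (adjusted p = 8.61e-07).

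FUL1, a FRUITFULL-type MADS-box partner of RIN, was the opposite case, since it rose in both genotypes and rose more in slnor. It stood at 690, 698 and 705 CPM in slnor at B7 and at 239, 214 and 239 CPM in slnor at B. In WT it stood at 728, 735 and 710 CPM at B7 and at 599, 581 and 575 CPM at B. The slnor level was far below WT at B and close to WT at B7, where the difference was not called. The slnor rise was 3.02-fold and the WT rise 1.24-fold, an interaction of 1.29 (SE 0.05, adjusted p = 9.34e-12). RIN itself behaved alike, at 651, 644 and 628 CPM in slnor at B7 and 297, 279 and 316 CPM in slnor at B, against 844, 843 and 827 CPM in WT at B7 and 654, 606 and 608 CPM in WT at B. It rose 2.16-fold in slnor and 1.35-fold in WT (interaction 0.68, SE 0.06, adjusted p = 6.93e-08), and stayed below WT at both stages.

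Other regulators fell in WT and rose in slnor. CNR, the SBP-box gene behind the Colorless non-ripening phenotype, rose by 0.50 on the log2 scale in slnor and fell by 0.17 in WT. AP2a, a negative regulator of ethylene production in ripening fruit, rose by 0.26 in slnor and fell by 0.57 in WT, and the MADS-box gene TAGL1 rose by 0.39 in slnor and fell by 0.19 in WT. DML2, the DNA demethylase of ripening fruit, fell in both genotypes, by 0.22 in slnor and by 1.03 in WT (interaction 0.81, SE 0.04, adjusted p = 1.17e-10). It stood at 1050 to 1062 CPM in slnor at B7, at 1225 to 1232 CPM in slnor at B, at 1081 to 1134 CPM in WT at B7 and at 2157 to 2312 CPM in WT at B. The DML2 gap of B was thus no longer called at B7.

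**Figure D4:**
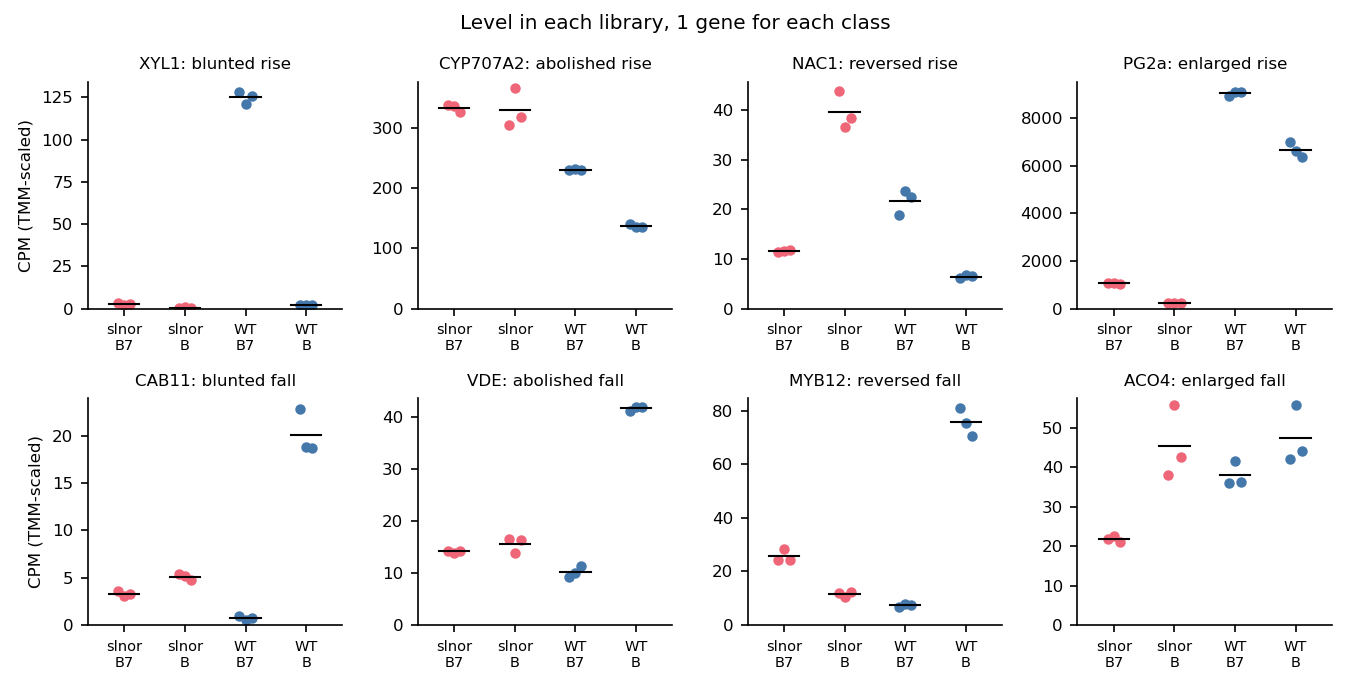
TMM-scaled CPM in each library for 1 gene of each class, chosen from the genes named by the rule. Points are libraries (3 per group) and bars are group means, each vertical axis starting at 0. NAC1 and MYB12 change in opposite directions in slnor and WT, and XYL1 shows a WT level at B7 of 121 to 128 CPM against 2.16 to 3.45 CPM in slnor.

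Of 10 ethylene synthesis genes tested, 4 had a higher and 3 a lower interaction, with a median of -0.17, or -0.03 with the 2 genes that had a group without counts set at 3 counts over that group. ACC synthases make the ethylene precursor ACC, and ACS2 and ACS4 are the ripening forms. ACS4 stood at 311, 335 and 313 CPM in slnor at B7 and at 166, 174 and 169 CPM in slnor at B. In WT it stood at 525, 528 and 525 CPM at B7 and at 159, 160 and 153 CPM at B. All B7 libraries were above all B libraries, and slnor lay above WT at B and below it at B7. The slnor rise was 1.88-fold and the WT rise 3.35-fold, an interaction of -0.83 (SE 0.05, adjusted p = 5.81e-10). ACS2 rose 1.67-fold in slnor, to 377, 393 and 366 CPM at B7 against 227, 207 and 247 CPM at B, and had no called change in WT, at 837, 849 and 842 CPM at B7 and 869, 881 and 852 CPM at B (interaction 0.78, SE 0.07, adjusted p = 6.98e-08). So ACS4 had a smaller rise in slnor than in WT while ACS2 rose in slnor alone.

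The 5 genes for ACC oxidases, which turn ACC into ethylene, all fell in both genotypes. ACO6 fell 6.53-fold in slnor and 14.3-fold in WT. It stood at 138, 136 and 137 CPM in slnor at B7, 812, 1034 and 833 CPM in slnor at B, 88.2, 92.1 and 95.5 CPM in WT at B7 and 1329, 1311 and 1310 CPM in WT at B. Its interaction was 1.13 (SE 0.09, adjusted p = 3.1e-08), and slnor was the lower genotype at B and the higher at B7. ACO4 was one of the few enlarged falls. It stood at 21.8, 22.7 and 21.2 CPM in slnor at B7 and 38.1, 55.9 and 42.6 CPM in slnor at B, against 36.1, 41.6 and 36.3 CPM in WT at B7 and 42.2, 55.9 and 44.1 CPM in WT at B, so only slnor at B7 stood clear of the other groups. The ACO4 interaction was -0.74 (SE 0.17, adjusted p = 0.00192). For ACO1, the most abundant of them, the interaction of 0.12 (adjusted p = 0.0215) was small, lost its call without WT at B replicate 1 or WT at B7 replicate 1 (adjusted p = 0.0615 and 0.0591), and was not called with library totals alone.

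Ethylene receptors repress the pathway until ethylene binds. Of 17 perception and response genes, 9 had a higher and 3 a lower interaction, and their median was 0.15. The receptor gene NR (Never-ripe, ETR3) rose by 0.17 in slnor and fell by 0.23 in WT on the log2 scale (interaction 0.40, SE 0.05, adjusted p = 5.47e-06). ETR4 fell by 0.30 in slnor and by 0.50 in WT, and ETR6 by 0.45 in slnor and by 1.19 in WT. EIL3, one of the EIN3-like factors that carry the signal into the nucleus, fell by 0.14 in slnor and rose by 0.29 in WT (interaction -0.43, adjusted p = 2.01e-06), while EIL1 and EIL4 had no called interaction (0.02 with a 95% interval of -0.09 to 0.13, and -0.03 with one of -0.14 to 0.09). The lower call of EIN2, the central signal transducer, (interaction -0.16, adjusted p = 0.0282) was lost on leaving out any 1 of 7 libraries, with adjusted p up to 0.111. EBF1, which encodes an F-box protein that marks EIN3-like factors for degradation, lost its call with library totals alone.

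The ethylene-responsive genes E8 and E4 fell less in slnor. E8 stood at 8292, 8208 and 8313 CPM in slnor at B7 and at 10130, 9416 and 10801 CPM in slnor at B. In WT it stood at 11382, 11085 and 11149 CPM at B7 and at 18106, 17892 and 17980 CPM at B. Each slnor group lay below the WT group of its stage. E8 fell 1.22-fold in slnor and 1.61-fold in WT, an interaction of 0.39 (SE 0.05, adjusted p = 5.42e-06). For E4 it was 0.55 (SE 0.06, adjusted p = 2.21e-06).

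The genes that lead to lycopene, which colours ripe fruit red, were split between genes with and without a called interaction. Of 13 genes tested, 7 had a called interaction (5 higher and 2 lower), beside 42.2% of all genes tested, and 6 had none. The median of the 13 was 0.12. PSY1 makes phytoene, the first carotenoid, in fruit. It stood at 6040, 6059 and 6077 CPM in slnor at B7 and at 4725, 4503 and 4908 CPM in slnor at B. In WT it stood at 8280, 8100 and 8115 CPM at B7 and at 8834, 8594 and 8453 CPM at B. PSY1 rose 1.29-fold in slnor and fell 1.06-fold in WT, an interaction of 0.44 (SE 0.04, adjusted p = 1.3e-07), and slnor remained below WT at both stages. ZISO, the ζ-carotene isomerase, rose in both genotypes and rose more in slnor (by 1.46, against 0.55 in WT, with an interaction of 0.91, SE 0.05, adjusted p = 6.49e-10).

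Several genes of the pathway had nearly equal stage changes. The interactions of HDR, DXS1 and CRTISO were 0.04, -0.03 and 0.01, and their 95% intervals lay within -0.11 and 0.13 on the log2 scale, although DXS1 was called lower (-0.10, adjusted p = 0.0415) with library totals alone. HDR rose by 0.69 in slnor and 0.66 in WT. GGPS2, a geranylgeranyl diphosphate synthase gene, was an enlarged fall, at 10.2, 10.1 and 11.7 CPM in slnor at B7 and 24.4, 21.1 and 24.1 CPM in slnor at B, against 72.4, 69.8 and 72.4 CPM in WT at B7 and 125, 115 and 128 CPM in WT at B. Its interaction was -0.34 (SE 0.09, adjusted p = 0.00546), and in CPM the fall was smaller in slnor, where it fell by 12.5 CPM, against WT, where it fell by 51.2 CPM. The other lower call, ZDS (interaction -0.17, adjusted p = 0.0145), was lost without slnor at B replicate 1 (adjusted p = 0.0646).

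After lycopene, 7 of 11 genes had a higher interaction and none a lower one, with a median of 0.64, and the calls of CYP97C11 and CCD1B were lost with library totals alone. Without 1 of 7 libraries in turn CYP97C11 also lost its call, with adjusted p of up to 0.08. These genes make β-carotene and xanthophylls or cut carotenoids. BCH2, a β-carotene hydroxylase of xanthophyll synthesis, stood at 48.6, 50.6 and 49.6 CPM in slnor at B7 and at 22, 21.6 and 20.6 CPM in slnor at B. In WT it stood at 47.5, 48.3 and 41.5 CPM at B7 and at 47.6, 53.3 and 50.7 CPM at B. Only slnor at B stood apart from the other groups, and the interaction was 1.36 (SE 0.08, adjusted p = 1.14e-09). VDE, the violaxanthin de-epoxidase, stood at 14.3, 13.9 and 14.3 CPM in slnor at B7 and 16.5, 13.9 and 16.4 CPM in slnor at B, against 9.33, 10 and 11.3 CPM in WT at B7 and 41.2, 42 and 42.1 CPM in WT at B. Its 4.08-fold fall in WT had no called counterpart in slnor, and the interaction was 1.89 (SE 0.11, adjusted p = 4.66e-10). With library totals alone the slnor fall of VDE was called too, which makes it a blunted fall.

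Of 14 cell wall genes, 10 had a higher and 3 a lower interaction, with a median of 0.88. XYL1, a β-xylosidase gene, showed the most strongly blunted rise among the list members by the rule used. It stood at 3.45, 2.16 and 2.64 CPM in slnor at B7 and at 0.233, 0.817 and 0.581 CPM in slnor at B. In WT it stood at 128, 121 and 126 CPM at B7 and at 2.31, 2.3 and 1.79 CPM at B. WT at B7 stood alone at a high level. XYL1 rose 4.96-fold in slnor and 58.5-fold in WT, an interaction of -3.56 (SE 0.35, adjusted p = 4.05e-07).

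PG2a, the fruit polygalacturonase that cuts pectin, behaved the other way on the log2 scale. It stood at 1078, 1071 and 1041 CPM in slnor at B7 and at 226, 234 and 250 CPM in slnor at B. In WT it stood at 8962, 9097 and 9111 CPM at B7 and at 7000, 6629 and 6387 CPM at B. The groups did not overlap, and slnor was far below WT at both stages. PG2a rose 4.49-fold in slnor and 1.36-fold in WT, an interaction of 1.73 (SE 0.05, adjusted p = 1.13e-13), but in CPM it gained less in slnor, 826 CPM against 2384 CPM in WT. The endoglucanase gene CEL2 was alike, with a rise of 3.23-fold in slnor and 2.08-fold in WT and gains of 121 CPM in slnor and 710 CPM in WT.

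MAN4a, an endo-β-mannanase gene, had the largest fall in WT among the named cell wall genes. It stood at 40.6, 38.3 and 35.3 CPM in slnor at B7 and at 61.7, 44.4 and 66.4 CPM in slnor at B. In WT it stood at 85.1, 84.6 and 85.9 CPM at B7 and at 1506, 1417 and 1405 CPM at B. The high WT level at B had no counterpart in slnor. MAN4a fell 1.51-fold in slnor and 16.9-fold in WT, an interaction of 3.48 (SE 0.14, adjusted p = 4.23e-12). The β-galactosidase gene TBG4 rose 1.17-fold in slnor and fell 2.87-fold in WT (interaction 1.74, SE 0.07, adjusted p = 3.41e-12), with slnor at 25.3 to 28.2 CPM at B7 and 22.4 to 23.8 CPM at B, and WT at 173 to 177 CPM at B7 and 471 to 531 CPM at B. PL, the ripening pectate lyase, had no called interaction (0.01, 95% interval -0.13 to 0.14), having risen by 0.46 in slnor and 0.45 in WT. The lower call of the expansin gene EXP1 (interaction -0.19, adjusted p = 0.0484) was lost on leaving out any 1 of 10 libraries, with adjusted p up to 0.154.

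Of 10 flavonoid and phenylpropanoid genes tested, 9 had a called interaction, all higher, and the median of the 10 was 2.85. In WT 9 of the 10 fell over the 7 days and 1 rose, while in slnor 4 fell and 5 rose. MYB12, the MYB factor that activates flavonol genes in tomato fruit peel, stood at 24.4, 28.5 and 24.3 CPM in slnor at B7 and at 11.8, 10.5 and 12.5 CPM in slnor at B. In WT it stood at 6.61, 7.85 and 7.52 CPM at B7 and at 81.1, 75.4 and 70.7 CPM at B. No groups overlapped, and the order of the genotypes was opposite at the 2 stages. MYB12 rose 2.22-fold in slnor and fell 10.3-fold in WT, an interaction of 4.51 (SE 0.12, adjusted p = 3.33e-14).

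The enzyme genes of the flavonoid pathway differed in what they did in slnor. CHS1, CHS2 and Solyc11g013110.2 rose in slnor and fell in WT. PAL5, a phenylalanine ammonia-lyase gene at the entry to the pathway, fell in both genotypes, 1.89-fold in slnor and 7.79-fold in WT. CHI1, a chalcone isomerase gene, fell 3.86-fold in slnor and 7.93-fold in WT without a called interaction (1.04, adjusted p = 0.346). 4CL, a 4-coumarate-CoA ligase gene, rose in both, 1.27-fold in slnor and 1.08-fold in WT. CHS2, a chalcone synthase gene for the first committed step, stood at 311, 283 and 297 CPM in slnor at B7 and at 102, 80.3 and 105 CPM in slnor at B. In WT it stood at 159, 171 and 156 CPM at B7 and at 812, 815 and 746 CPM at B. The CHS2 interaction was 3.93 (SE 0.11, adjusted p = 3.59e-14) and that of CHS1, its near copy, 3.85 (SE 0.11), and the counting could have shared reads between these 2 genes. F3H, flavanone 3-hydroxylase, stood at 148, 139 and 140 CPM in slnor at B7 and 155, 149 and 167 CPM in slnor at B, against 46.1, 53 and 47.8 CPM in WT at B7 and 702, 721 and 660 CPM in WT at B. F3H fell 1.1-fold in slnor and 14.2-fold in WT (interaction 3.68, SE 0.08, adjusted p = 2.67e-15). Of the 10 genes, 7 were below WT in slnor at B and above WT in slnor at B7, as were 853 genes (10.1%) among all calls.

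Cuticle genes, which make the wax and cutin of the fruit epidermis, had called interactions in 5 of 6 cases, all higher, with a median of 2.84. CER6, a β-ketoacyl-CoA synthase of wax synthesis, stood at 106, 110 and 105 CPM in slnor at B7 and at 69, 70.3 and 74.3 CPM in slnor at B. In WT it stood at 61.1, 59.7 and 58.4 CPM at B7 and at 285, 299 and 292 CPM at B. CER6 rose 1.5-fold in slnor and fell 4.89-fold in WT, an interaction of 2.87 (SE 0.05, adjusted p = 2.67e-15). CD1, the cutin synthase gene, had a fitted interaction of 5.68, but it was at 0 in 2 of the 3 WT libraries at B7, where the third held 0.0762 CPM, so that size is poorly determined. The homeodomain gene CD2 fell in both genotypes (interaction 0.79, SE 0.06, adjusted p = 1.02e-08).

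**Figure D5:**
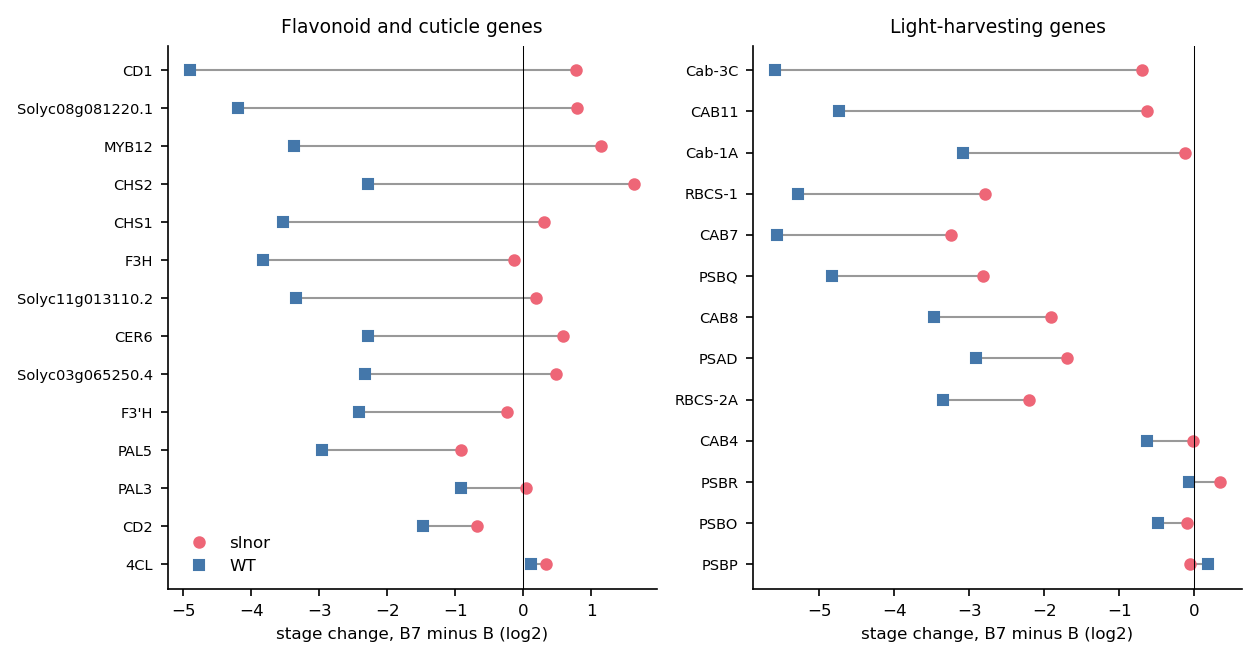
Stage change on the log2 scale in slnor (circles) and WT (squares) for the list members with a called interaction, flavonoid and cuticle genes on the left and light-harvesting genes on the right. A line joins the 2 genotypes of a gene. The slnor circles of MYB12, CHS2 and CER6 lie right of 0 and their WT squares left of it, and in CAB7 and PSBQ both lie left of 0.

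The cuticle list also marks epidermis. Its 6 genes summed to 302 to 319 CPM in slnor at B7, 254 to 270 CPM in slnor at B, 164 to 166 CPM in WT at B7 and 680 to 713 CPM in WT at B. MYB12, CHS2 and F3H were likewise highest in WT at B. CER6 was too, but it is 1 of the 6 genes summed, at 285 to 299 CPM in WT at B. The sum is therefore no separate measure for CER6 or the other cuticle genes. By gene, slnor was called below WT at B in 3 of the 6 and above in 3, beside 49.3% of all genes called there in either direction. The 3 above WT were CD1, GPAT6 and Solyc08g081220.1, with means of 1.08 to 2.58 CPM in slnor at B. The sum at B thus does not follow all members. In bulk RNA, fewer cells of a type and less RNA of these genes per cell cannot be told apart. The part of the tissue mix in the flavonoid and cuticle interactions was not tested.

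Light-harvesting and photosystem genes mostly fell in both genotypes, and less in slnor. Of 16 genes tested, 12 had a higher and 1 a lower interaction, with a median of 1.78. CAB11, a chlorophyll a/b-binding protein gene, stood at 3.6, 3.06 and 3.24 CPM in slnor at B7 and at 5.35, 5.22 and 4.81 CPM in slnor at B. In WT it stood at 0.971, 0.552 and 0.759 CPM at B7 and at 22.9, 18.8 and 18.7 CPM at B. It fell 1.55-fold in slnor and 26.7-fold in WT, an interaction of 4.10 (SE 0.21, adjusted p = 8.92e-11), with slnor between the WT groups at both stages. Cab-1A stood at 5.86, 5.17 and 6.3 CPM in slnor at B7 and 7.27, 5.19 and 6.54 CPM in slnor at B, 2 groups that overlap, against 2.17, 2.48 and 2.29 CPM in WT at B7 and 19.7, 18.8 and 20.5 CPM in WT at B. Its interaction was 2.95 (SE 0.17, adjusted p = 4.45e-10), and Cab-1A has near-identical copies among which reads could be split.

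Other members fell strongly in slnor too. CAB7 fell 9.43-fold in slnor and 47.1-fold in WT, and PSBQ, a subunit of the oxygen-evolving complex, 7.07-fold in slnor and 28.3-fold in WT. The Rubisco small subunit gene RBCS-2A fell by 2.21 in slnor and 3.34 in WT on the log2 scale, but in CPM it fell by 223 in slnor and by 200 in WT. PSBP was the lower call, at 457, 458 and 478 CPM in slnor at B7 and 510, 439 and 496 CPM in slnor at B, which overlap, against 615, 632 and 596 CPM in WT at B7 and 551, 521 and 555 CPM in WT at B (interaction -0.23, SE 0.07, adjusted p = 0.00919). The 16 genes, which also mark green tissue, summed to 1442 to 1492 CPM in slnor at B7, 1808 to 2002 CPM in slnor at B, 1471 to 1515 CPM in WT at B7 and 2548 to 2716 CPM in WT at B. PSBP alone gave 596 to 632 CPM of the WT sum at B7, so the sum does not follow most members there. By gene, slnor was called above WT at B7 in 8 of the 16 and below in 4, beside 55.8% of all genes called there in either direction. CAB5 was at 0 in every B7 library of both genotypes. The part of green tissue in these interactions was not tested.

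Of 3 chlorophyll breakdown genes, 1 had a called interaction, which was higher, beside 42.2% of all genes tested. SGR1, the stay-green protein gene needed to degrade chlorophyll, stood at 480, 486 and 437 CPM in slnor at B7 and at 456, 382 and 466 CPM in slnor at B. In WT it stood at 1123, 1160 and 1122 CPM at B7 and at 1150, 1116 and 1100 CPM at B. The genotypes were far apart and the stages overlapped within each, with an interaction of 0.09 (95% interval -0.08 to 0.26, adjusted p = 0.413). The called gene was Solyc04g063240.3, with an interaction of 0.90 (adjusted p = 0.00337). The interaction of Solyc01g088090.3 was -0.19 (adjusted p = 0.0572), and it was called lower with library totals alone, with no low-count filter or without slnor at B replicate 2 (adjusted p = 0.00159 without that library).

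Glycoalkaloids are the bitter defence compounds of green fruit, and their GAME synthesis genes are switched off in ripening. All 7 genes tested fell in WT and 6 fell in slnor. A called interaction was found for 3, all higher, or 5 with DESeq2, beside 42.2% of all genes tested in the main fit. The median of the 7 genes was 2.65, or 2.31 with GAME4, which had no count in WT at B7, set at 3 counts there. GAME12, a transaminase of the pathway, stood at 6.29, 7.83 and 6.61 CPM in slnor at B7 and at 13.1, 13.6 and 13.5 CPM in slnor at B. In WT it stood at 0.438, 1.07 and 0.853 CPM at B7 and at 11.2, 13.8 and 9.58 CPM at B. The genotypes overlapped at B and stood apart at B7, and the interaction was 2.89 (SE 0.26, adjusted p = 1.12e-07). GAME11, a dioxygenase, stood at 2.23, 2.23 and 2.03 CPM in slnor at B7 and 17.4, 18.3 and 17.1 CPM in slnor at B, against 0.152, 0.876 and 0.348 CPM in WT at B7 and 18.6, 19.7 and 19 CPM in WT at B (interaction 2.31, SE 0.33, adjusted p = 2.12e-05). Leaving out single libraries moved it between 1.94 and 3.17. GAME genes have close paralogues, so reads could be shared between copies.

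Of 13 flavour volatile genes, 7 had a called interaction (4 higher and 3 lower), beside 42.2% of all genes tested. The median of the 13 was 0.05. LOXA, a fruit lipoxygenase gene, stood at 1232, 1165 and 1071 CPM in slnor at B7 and at 1354, 1221 and 1387 CPM in slnor at B. In WT it stood at 271, 250 and 270 CPM at B7 and at 1196, 1199 and 1154 CPM at B. WT at B7 was low by itself, and the interaction was 1.97 (SE 0.07, adjusted p = 1.8e-12). LOXC, the lipoxygenase behind the C6 volatiles of tomato, had a WT fall of 3-fold with no called change in slnor, where it was low at both stages (63.5 to 83.1 CPM at B7 and 58.5 to 87.5 CPM at B, against 433 to 449 CPM in WT at B7 and 1276 to 1379 CPM in WT at B). At B7 slnor was thus above WT for LOXA and below WT for LOXC.

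The 3 lower calls were in genes that fell, or rose less, in slnor. LOXD, a lipoxygenase of wound and jasmonate responses, stood at 82.5, 79.2 and 85 CPM in slnor at B7 and 174, 141 and 147 CPM in slnor at B, against 38, 42.3 and 43.2 CPM in WT at B7 and 30.7, 38.2 and 37.6 CPM in WT at B, where the WT stages overlap (interaction -1.12, SE 0.12, adjusted p = 6.26e-07). AADC1A, an aromatic amino acid decarboxylase gene of phenylethanol synthesis, stood at 5.6, 6.07 and 5.44 CPM in slnor at B7 and 22, 17 and 20.1 CPM in slnor at B. In WT it stood at 3.33, 4.9 and 4.99 CPM at B7 and 3.67, 5.13 and 5.49 CPM at B. Only slnor at B was high, and the interaction was -1.68 (SE 0.22, adjusted p = 1.02e-05). ADH2, the alcohol dehydrogenase of ripening fruit, rose in both genotypes with a small interaction, 3.2-fold in slnor and 3.83-fold in WT (interaction -0.26, adjusted p = 3.99e-05).

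Of 11 genes of the sugar, starch and acid list, 7 had a called interaction (5 higher and 2 lower), beside 42.2% of all genes tested. Its named members are sugar and starch genes, and none is an acid gene. The median of the 11 was 0.24. GBSS1, the starch synthase that makes amylose, stood at 120, 117 and 121 CPM in slnor at B7 and at 156, 145 and 150 CPM in slnor at B. In WT it stood at 29.4, 28.4 and 31.1 CPM at B7 and at 94.7, 92.2 and 95.6 CPM at B. The fall was 1.26-fold in slnor and 3.18-fold in WT, an interaction of 1.33 (SE 0.06, adjusted p = 1.15e-11). TIV1, the vacuolar acid invertase that splits sucrose, rose by 0.20 in slnor and fell by 0.17 in WT on the log2 scale, whereas SUS3, a sucrose synthase gene, rose by 0.53 in slnor and 0.95 in WT (interaction -0.42, adjusted p = 1.33e-05).

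Of 6 abscisic acid genes, 3 had a called interaction (2 higher and 1 lower), beside 42.2% of all genes tested. The median of the 6 was 0.10. NCED1, the rate-limiting dioxygenase of abscisic acid synthesis in fruit, stood at 273, 278 and 255 CPM in slnor at B7 and at 479, 406 and 510 CPM in slnor at B. In WT it stood at 186, 178 and 182 CPM at B7 and at 431, 459 and 467 CPM at B. The genotypes overlapped at B and not at B7, with an interaction of 0.52 (SE 0.09, adjusted p = 0.000122). CYP707A2, an abscisic acid 8'-hydroxylase that breaks the hormone down, stood at 338, 335 and 326 CPM in slnor at B7 and 304, 365 and 318 CPM in slnor at B, against 229, 232 and 230 CPM in WT at B7 and 140, 136 and 136 CPM in WT at B. The WT rise of 1.68-fold had no called counterpart in slnor, and the interaction was -0.73 (SE 0.07, adjusted p = 2.63e-07). FLC, the FLACCA gene for the cofactor step of abscisic acid synthesis, and ZEP, the zeaxanthin epoxidase, were called lower only with library totals alone or on leaving out 1 of 2 libraries (adjusted p = 0.0602 and 0.103 with all 12).

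The seed list held 1 identifier, Solyc06g060840.1. It stood at 0.397, 0.676 and 0.179 CPM in slnor at B7 and at 7.32, 6.25 and 6.47 CPM in slnor at B. In WT it stood at 14.6, 16.4 and 14.2 CPM at B7 and at 74.7, 67.5 and 69.3 CPM at B. All 4 groups were apart, and its interaction was -1.78 (SE 0.25, adjusted p = 1.88e-05). In CPM the fall was larger in WT, the opposite sign, and each slnor library at B7 was under 1 CPM. The part of seed in other interactions was not tested.

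Outside the lists, the 2 largest called interactions of each sign are printed here by identifier. Only genes with at least 10 CPM in some group and at least 3 counts in each group were ranked. Solyc08g079890.2 stood at 6.59, 9.82 and 6.69 CPM in slnor at B7 and 0.413, 0.304 and 0.419 CPM in slnor at B, against 1.49, 0.811 and 1.3 CPM in WT at B7 and 8.74, 13.1 and 13.9 CPM in WT at B. It rose in slnor and fell in WT, with an interaction of 7.66 (SE 0.35, adjusted p = 2.91e-11). Solyc05g015060.4 stood at 7.05, 7.64 and 5.47 CPM in slnor at B7 and 6.53, 9.47 and 8.88 CPM in slnor at B, against 179, 178 and 187 CPM in WT at B7 and 3.84, 3.04 and 3.79 CPM in WT at B, so that WT at B7 was high by itself (interaction -5.99, SE 0.17, adjusted p = 9.33e-14). Solyc03g121600.4 had an interaction of 6.39 (SE 0.47, adjusted p = 8.75e-09) and was at 0 in 2 WT libraries at B7. Solyc00g500325.1 had an interaction of -7.87 (SE 1.66, adjusted p = 0.00102), but WT at B7 held 4.78, 31.1 and 2.43 CPM, and leaving out single libraries moved the interaction between -12.37 and -6.05.

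A difference of log2 changes and a difference of amounts can have opposite signs. Of the 8474 genes, 282 (3.33%) had the opposite sign when the interaction was taken on mean CPM, most often among enlarged rises (44 of 372, 11.8%) and blunted falls (158 of 1585, 9.97%). No reversed change had the opposite sign, which follows from the definition of that class. The balance of directions also depended on scaling: higher interactions were 51.7% of the calls with TMM and 41.6% with library totals alone (3726 higher and 5225 lower).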

How the data were processed

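Counts of 12 tomato fruit libraries in 4 groups of 3 were analysed. Raw counts per gene came from the table the authors deposited, and whether a count is a read or a collapsed molecule is not given. The deposited tables of single libraries hold values taken here to be FPKM, since count over value gave the same gene length within 1% in all libraries for 7290 of 7290 abundant genes, and they served only to check gene names. Per the submitters' processing notes, the tools were HISAT, UMI-tools, StringTie and edgeR, with no role or order. The genome build, annotation, kit and strand setting were not given in the sources used here, and the labels name no batch.

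In R 4.3.3 with edgeR 4.0.16, TMM factors (0.9474 to 1.092), filterByExpr and 1 quasi-likelihood fit of the 4 groups gave the stage change in each genotype, the genotype difference at each stage and the interaction, with Benjamini-Hochberg adjustment over 20070 genes and calls under 0.05. A standard error (SE) is the log2 change over the square root of F. Classes carry no test of their own. The fit was run on simulated counts. It did not meet a first requirement on the share of changed genes called, which was replaced, after that was seen, by requirements on the size and sign of the estimates and on false calls. It met those.

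The 15 lists hold 160 identifiers, all in the count table. Names came from published nomenclature, and 149 were matched to RefSeq symbols (assembly SLM_r2.1) by chromosome, rank along it and length. The members, lists and classes were chosen with earlier results of these data known. The rule named NOR, in each list up to 2 genes with the largest called interaction of at least 2-fold at least 5 CPM in the highest group and 3 counts in each group (otherwise the most abundant member), 2 list members for each class and direction, and 4 identifiers outside the lists. Other members were chosen after their values were seen. Intervals cover these libraries only. Alternatives were median-of-ratios factors, library totals alone, DESeq2 1.42.0, no filter, stricter calls, a replicate block and leaving out each library.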

Additional observations from a re-analysis of the deposited data

Results flagged for a closer look

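The interaction is itself a test of whether a stage change differs between the 2 genotypes, and it was called for 8474 genes. Among the genes named by the rule, these are the ones whose stage change was called in opposite directions in slnor and WT. Their interactions on the log2 scale were -3.53 for NAC1 and -1.12 for LOXD, which fell in slnor and rose in WT. They were 4.51 for MYB12, 3.93 for CHS2, 2.87 for CER6, 1.36 for BCH2 and 0.44 (0.442) for PSY1, which rose in slnor and fell in WT. Among unnamed identifiers, Solyc08g079890.2 (7.66) and Solyc03g121600.4 (6.39) rose in slnor and fell in WT, and Solyc05g015060.4 (-5.99) fell in slnor, by 0.31 with an adjusted p of 0.0428 in edgeR's quasi-likelihood test, and rose in WT. The WT falls of PSY1 (0.08) and BCH2 (0.14) and the WT rise of LOXD (0.21) were small. No test for single libraries far from the others was run within the groups of 3. Refits without each library are given below.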

How the results depend on the processing

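The count of called interactions was 8351 without the low-count filter, 8417 with DESeq2, 8441 with median-of-ratios factors, 8951 with library totals alone and 6358 at an adjusted p under 0.01. Tested against a 1.2-fold change (glmTreat) it was 4821, 2804 higher and 2017 lower, with 12 list members lower. At an adjusted p under 0.01 there were 833 blunted rises, 258 reversed rises, 221 enlarged rises and 151 enlarged falls, and gaps with slnor below WT that widened numbered 300, those with slnor above that narrowed 288 and those that crossed 418. Library totals alone gave 799 reversed rises and 880 falls in slnor alone. They also gave 475 closed and 326 narrowed gaps with slnor below WT, and 1873 closed and 882 narrowed gaps with slnor above. List counts also moved by over 1.5 times in some cases. Against 1.2-fold, ethylene perception had 1 lower call, the genes to lycopene 3 higher and 0 lower, sugar genes 1 lower and light harvesting 0 lower, and at an adjusted p under 0.01 the genes to lycopene had 1 lower. With library totals alone the genes after lycopene had 1 lower call, chlorophyll breakdown 1 and abscisic acid 3. With library totals 6556 of the 8474 genes kept their class. The alternatives for the gap classes, the percent of the WT change and the CPM scale were added after the data were seen. Leaving out each library in turn left all class counts within 1.5 times. Leaving one out cost 5 list members their call in at least 1 case (ACO1, CYP97C11, EIN2, EXP1 and ZDS) and gave 19 others a call. It turned no sign among members called with all 12 libraries or those that gained a call. List members without a call in both fits were not compared for sign. Over 612 refits of 34 named genes no sign turned, and 610 stayed on the same side of the threshold. The exceptions were PSBP (adjusted p = 0.712) and GGPS2 (adjusted p = 0.211) against 1.2-fold. The replicate numbers did not pair the libraries (correlations of same-numbered deviations -0.061 to 0.067, 5 of 12 libraries closest to their own number), and a fit with the replicate number as a block gave 8244 calls. Depth limits genes under 1 CPM, of which 15.4% were called, with a median SE of 1.04.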
